A study of Mus musculus with 8 samples.

Results

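The 8 keratin genes described here belong to resting mouse epidermis and were followed in RNA sequencing of ear epidermal sheets: Krt5, Krt14 and Krt15 of the basal layer, Krt1 and Krt10 of the suprabasal layers, Krt2 and Krt77 of the upper suprabasal layers, and Krt79 of the upper hair follicle. They are 8 of 54 keratin genes and of 51912 gene identifiers in the count files, and were taken by name. All 8 passed the filter on low counts, as did 40 keratin genes and 16512 genes in all. The libraries came from 8 mice. The A20KIKO group (4 mice) carried floxed alleles of A20, the product of Tnfaip3, together with Krt5-CreERT2, a tamoxifen-inducible Cre recombinase named for the Krt5 promoter. The A20WT group (4 mice) carried the same floxed alleles without Krt5-CreERT2. All animals, A20WT included, were 8 weeks old, received 1 mg of tamoxifen intraperitoneally in each of 2 injections on consecutive days, and were killed 7 days after the first. Because every A20KIKO mouse carried the Cre and no A20WT mouse did, an effect of the Cre and an effect of the A20 deletion cannot be told apart. The labels do not say whether the Cre is a transgene elsewhere in the genome or an insertion at Krt5, and this bears on each value of Krt5.

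Keratins are the intermediate filament proteins of epithelia. A type I keratin pairs with a type II keratin, and the filament cannot form from one type alone. Keratinocytes of the basal layer make the type II keratin of Krt5 and the type I keratin of Krt14. When they leave that layer they turn on the type II keratin of Krt1 and the type I keratin of Krt10, and Krt2 follows higher up, in mice above all in ear, tail and sole skin. The type II genes of the set (Krt5, Krt1, Krt2, Krt77, Krt79) lie on chromosome 15 and the type I genes (Krt14, Krt15, Krt10) on chromosome 11.

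Summed counts per library ran between 40451075 and 89106039 in the libraries labelled A20KIKO and between 52972464 and 89624373 in A20WT-labelled ones. The 8 keratins took 9.45% ± 0.805 of all counts in libraries labelled A20KIKO and 9.31% ± 0.738 in A20WT-labelled libraries (SD, n = 4 each). Within the counts of all 54 keratins, these 8 genes held 86.9% in A20KIKO mouse 4, while the other 7 libraries had 94.3% to 96.2%. Tnfaip3, the targeted gene, had 74.0 ± 17.3 CPM (counts normalised to library size by TMM) in libraries labelled A20KIKO and 16.5 ± 2.65 CPM in A20WT-labelled libraries (SD, n = 4 each). This difference runs against the label. The count covers the whole gene and no source used here names the deleted exons, so it does not check the deletion. The groups are therefore named by their labels. The genes of cell types other than keratinocytes are given near the end.

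RefSeq promoter windows are shown for 3 keratins. The Cre is named for the Krt5 promoter, and Krt77 is the other gene of the set that changed. Krt14 is the partner of Krt5 that did not pass the test. Each window is the 250 bases before the RefSeq gene start on GRCm38.p6, from the minus strand and written 5′ to 3′. RefSeq promoters matched 6 of the 8 genes, and Krt1 and Krt15 are named only. No source used here gives the promoter fragment of Krt5-CreERT2, so the first sequence is that of the endogenous gene.
Krt5, chr15:101712906-101713155: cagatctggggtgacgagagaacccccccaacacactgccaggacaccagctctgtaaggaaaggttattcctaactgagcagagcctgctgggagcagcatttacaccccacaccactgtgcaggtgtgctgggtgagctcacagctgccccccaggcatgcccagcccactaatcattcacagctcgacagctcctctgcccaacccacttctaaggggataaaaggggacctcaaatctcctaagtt
Krt77, chr15:101869706-101869955: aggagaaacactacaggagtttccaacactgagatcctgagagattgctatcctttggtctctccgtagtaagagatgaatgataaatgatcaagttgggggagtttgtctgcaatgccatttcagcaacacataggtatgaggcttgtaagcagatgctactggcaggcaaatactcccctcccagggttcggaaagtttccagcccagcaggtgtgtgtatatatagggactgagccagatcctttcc
Krt14, chr11:100206031-100206280: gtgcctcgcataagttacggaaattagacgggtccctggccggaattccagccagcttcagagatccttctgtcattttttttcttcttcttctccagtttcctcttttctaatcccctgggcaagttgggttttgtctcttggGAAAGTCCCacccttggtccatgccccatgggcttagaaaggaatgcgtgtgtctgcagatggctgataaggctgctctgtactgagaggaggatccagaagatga
Capitals mark a match on the opposite strand to the NF-kB letters GGGANTTTC, beginning 106 bases before the RefSeq start of Krt14. That start lies inside the GENCODE M21 bounds of Krt14 given below with its counts, which reach further 5′ than this window, so the window is sequence within the gene in that annotation.

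A set of 6 motifs was chosen with these sequences in view. Both strands of the 6 windows and of all 32851 RefSeq promoters of the same length were searched for them. GGGANTTTC was found in the Krt14 window alone among the 6, and in 0.941% of all promoters. That window lies within the gene in GENCODE M21, so the match is not shown to be in the Krt14 promoter. TATAAA, a common form of the TATA box, was found in Krt10 alone, 26 bases before the RefSeq start, and in 12.4% of all promoters. Other TATA-like letters, such as the tatatata in the Krt77 sequence above, were not searched. The search therefore does not show that the other promoters lack a TATA box. The AP-1 letters TGANTCA (6.75% of all promoters), the AP-2 letters GCCNNNGGC (13.7%), the Sp1 letters GGGCGG (32.7%) and the interferon response letters GAAANNGAA (7.13%) were in none of the 6. These matches describe the letters of the window only.

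Levels can be compared between genes only per length, so CPM was divided by the length of the main transcript. Krt2 had the highest level, with 17300 ± 2502 CPM per kb in libraries labelled A20KIKO and 14624 ± 1651 CPM per kb in A20WT-labelled libraries (SD, n = 4 each). Krt14 followed with 9956 ± 1490 CPM per kb (A20KIKO) and 12116 ± 3003 CPM per kb (A20WT). Krt10 had 9471 ± 1726 CPM per kb in libraries labelled A20KIKO and 8217 ± 1468 CPM per kb in A20WT-labelled libraries. These 3 genes were the highest of the set, and Krt14 and Krt10 overlapped between libraries in either group. Krt2 lay above Krt14 in each library labelled A20KIKO, with no overlap, while in A20WT libraries the 2 genes overlapped. Krt15 stood at 2362 ± 692 CPM per kb (A20KIKO) and 3784 ± 569 CPM per kb (A20WT), and Krt5 at 1599 ± 60.3 CPM per kb (A20KIKO) and 2834 ± 262 CPM per kb (A20WT). Both lay below the 3 highest genes in every library. Krt1 had 1385 ± 1254 CPM per kb (A20KIKO) and 837 ± 474 CPM per kb (A20WT), and Krt79 had 822 ± 71.9 CPM per kb (A20KIKO) and 704 ± 35.1 CPM per kb (A20WT). Krt1 and Krt79 overlapped in either group. Krt77 was lowest, at 119 ± 26.6 CPM per kb in libraries labelled A20KIKO and 212 ± 43.9 CPM per kb in A20WT-labelled libraries. With the merged length of all annotated exons in place of the main transcript, Krt1 had 770 ± 697 CPM per kb (A20KIKO) and 465 ± 264 CPM per kb (A20WT), since its annotation holds 4415 merged exon bases against 2455 in the main transcript. On the merged length Krt79 had 363 ± 31.7 CPM per kb (A20KIKO) and 311 ± 15.5 CPM per kb (A20WT), from 4753 merged exon bases against 2097 in the main transcript.

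**Figure D1:**
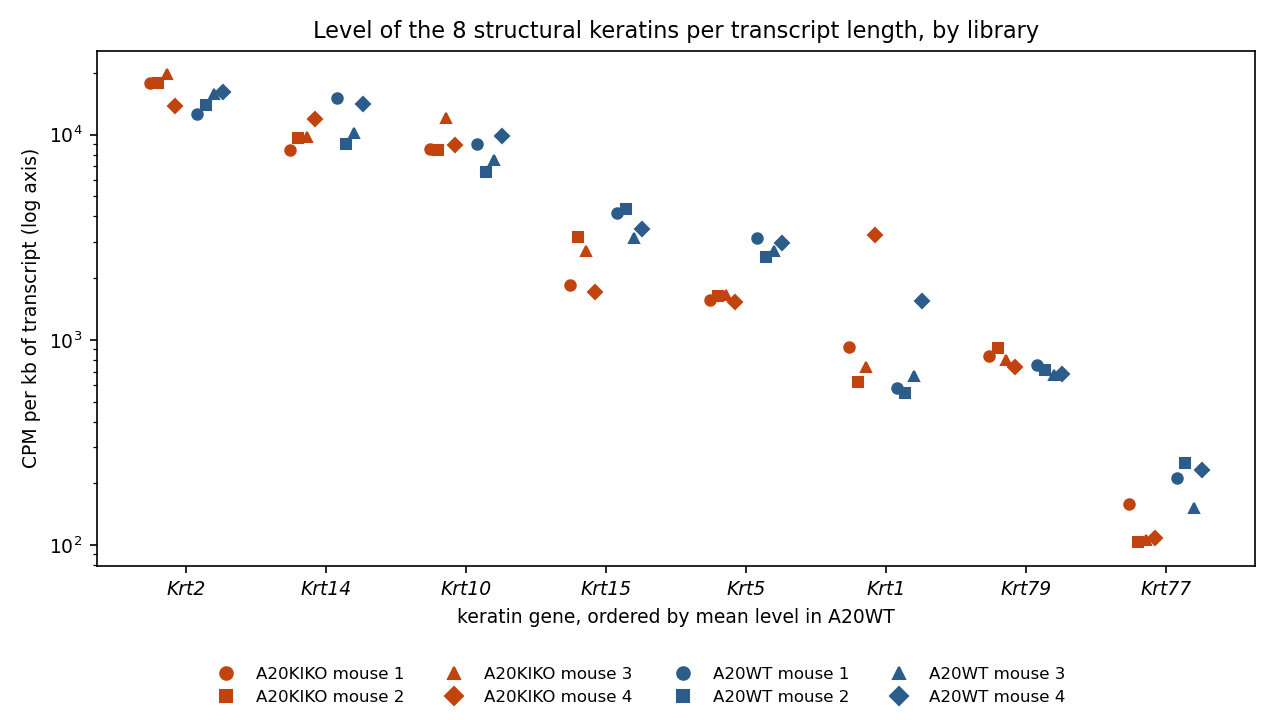
CPM per kb of main transcript (log axis) for the 8 keratins, ordered by their mean in A20WT. Each point is 1 library, with A20KIKO in orange left of A20WT in blue; Krt2, Krt14 and Krt10 lie above the other 5 genes in every library, and Krt77 lies below them.

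The comparison of A20KIKO with A20WT libraries shows which of these keratin transcripts differed on day 7 after tamoxifen was begun. Krt5 and Krt77 fell in libraries labelled A20KIKO, to 0.564 and 0.562 times the A20WT level, and the other 6 keratins did not pass the test. At a Benjamini-Hochberg adjusted p under 0.05 over 16512 genes in edgeR's quasi-likelihood test, 2 of the 8 keratins changed. Both were lower. Over all tested genes 3.49% changed, 2.43% higher and 1.06% lower. Of the 8 log2 changes (A20KIKO minus A20WT), 4 were below 0 and 4 above, with a median of -0.04, against -0.0062 over all tested genes. The 4 below 0 were the 3 basal keratins and Krt77. In RNA from whole sheets, fewer cells of a type and less RNA per cell cannot be told apart.

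**Figure D2:**
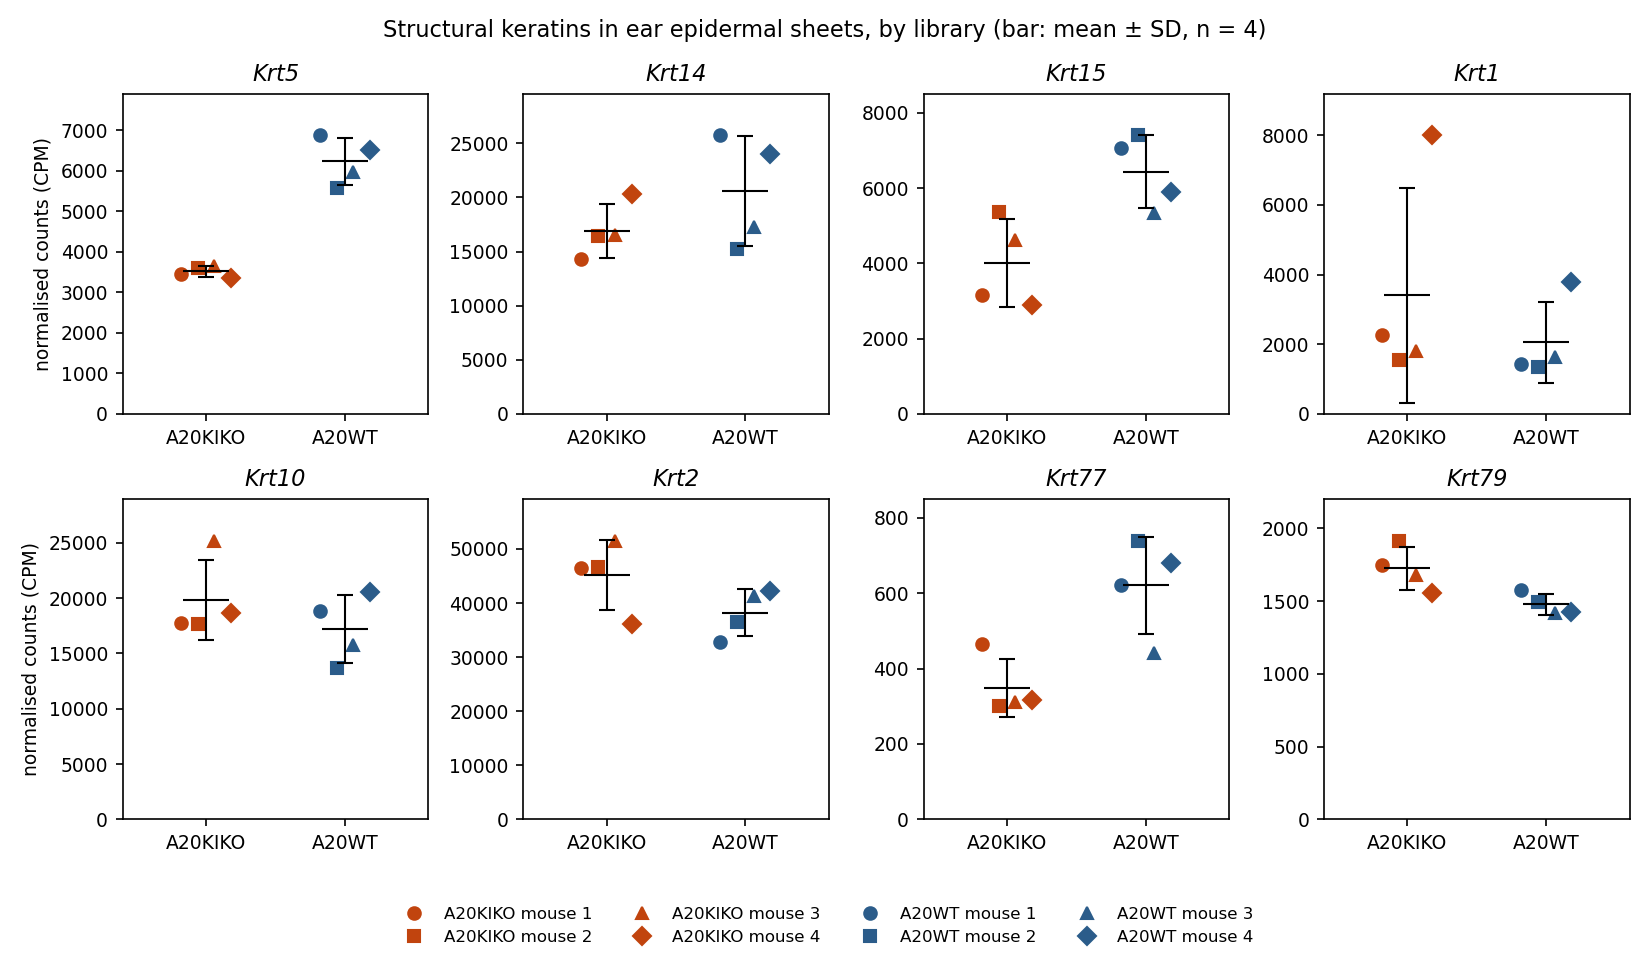
Normalised counts (CPM, linear axes from 0) of the 8 keratins in each library, with A20KIKO in orange on the left and A20WT in blue on the right; bars show mean ± SD (n = 4). Krt5 separates the groups completely, Krt77 and Krt15 overlap by 1 library, and Krt1 is highest in mouse 4 of each group.

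Among the basal keratins, Krt5 (ENSMUSG00000061527, chr15:101707070-101712898, minus strand) had 3454, 3605, 3637 and 3354 CPM in A20KIKO mice 1 to 4. In A20WT mice 1 to 4 it had 6869, 5574, 5957 and 6506 CPM. The 4 libraries labelled A20KIKO lay below the 4 labelled A20WT and differed little among themselves, with a coefficient of variation of 3.77% against 9.23% in A20WT. The log2 change was -0.83 (SE 0.12, 95% interval -1.09 to -0.56, edgeR adjusted p = 0.00272). Groups did not overlap in 10.6% of all tested genes, with A20KIKO higher in 5.78% and lower in 4.79%. A test for a change beyond 1.5-fold was not passed (edgeR adjusted p = 0.338). A microRNA gene on the plus strand, Gm44323, overlaps Krt5, and without strand information reads of the 2 could not be separated.

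Krt14 (ENSMUSG00000045545, chr11:100203162-100207548, minus strand), the type I partner of Krt5, had 14269, 16456, 16536 and 20357 CPM in A20KIKO mice 1 to 4. The A20WT mice had 25733, 15258, 17251 and 24050.4 CPM. The groups overlapped, with A20WT mice 2 and 3 inside the range of the libraries labelled A20KIKO. Its log2 change was -0.28 (95% interval -0.69 to 0.13, edgeR adjusted p = 0.537). The log2 changes of Krt5 and Krt77 lie outside this interval. Their own intervals overlap it, so this does not show that their changes differ from that of Krt14.

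Krt15 (ENSMUSG00000054146, chr11:100131758-100135928, minus strand), a type I keratin of basal cells and of the hair follicle bulge, had 3164, 5364, 4627 and 2903 CPM in A20KIKO mice 1 to 4. It had 7077, 7403, 5348 and 5906 CPM in A20WT mice 1 to 4. The groups met at their edges, A20KIKO mouse 2 lying just above A20WT mouse 3. The log2 change of -0.68 (SE 0.20, 95% interval -1.12 to -0.24) did not pass after adjustment (edgeR adjusted p = 0.104). It passed with DESeq2 (adjusted p = 0.0172) and without A20KIKO mouse 2 (edgeR adjusted p = 0.0449).

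Of the suprabasal pair, Krt1 (ENSMUSG00000046834, chr15:101845426-101850794, minus strand) varied most of the 8 genes. It had 2266, 1537, 1802 and 7996 CPM in A20KIKO mice 1 to 4, and 1433, 1353, 1642 and 3791 CPM in A20WT mice 1 to 4. Mouse 4 was far above the other 3 mice in either group, and the remaining libraries overlapped. The log2 change was 0.73 (95% interval -0.80 to 2.25, edgeR adjusted p = 0.687), and -0.14 without A20KIKO mouse 4. The same 2 libraries held the highest counts of stress keratins, the wound-associated genes Krt6a, Krt6b and Krt16. Krt16 had 3366 CPM in A20KIKO mouse 4 and 823 CPM in A20WT mouse 4, against 197 to 545 CPM in the other A20KIKO mice and 24.9 to 219 CPM in the other A20WT mice. The part of this in the Krt1 values was not tested.

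Krt10 (ENSMUSG00000019761, chr11:99385254-99389364, minus strand), the type I partner of Krt1, had 17791, 17687, 25215.5 and 18631 CPM in A20KIKO mice 1 to 4. It had 18802, 13704, 15739.8 and 20580.5 CPM in A20WT mice 1 to 4. The groups overlapped and A20KIKO mouse 3 was the highest library. Its log2 change was 0.20 (95% interval -0.17 to 0.58, edgeR adjusted p = 0.652). An antisense gene, Gm11940, overlaps Krt10, and without strand information reads of the 2 could not be separated.

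In the upper suprabasal layers, Krt2 (ENSMUSG00000064201, chr15:101810689-101818169, minus strand) had 46533, 46686, 51553 and 36042 CPM in A20KIKO mice 1 to 4. It had 32885, 36562, 41262.5 and 42139 CPM in A20WT mice 1 to 4. A20KIKO mice 1 to 3 lay above all A20WT libraries and A20KIKO mouse 4 inside their range. The log2 change was 0.24 (95% interval -0.09 to 0.58, edgeR adjusted p = 0.513).

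Krt77 (ENSMUSG00000067594, chr15:101858731-101869705, minus strand) is a type II keratin close to Krt1 that is recorded in suprabasal mouse epidermis and, in humans, in sweat gland ducts. It had 465, 302, 310.4 and 317 CPM in A20KIKO mice 1 to 4, and 621, 739.9, 442 and 681 CPM in A20WT mice 1 to 4. The groups overlapped by 1 library each, A20KIKO mouse 1 lying above A20WT mouse 3. The log2 change was -0.83 (SE 0.18, 95% interval -1.23 to -0.43, edgeR adjusted p = 0.0259). The call was lost on leaving out A20KIKO mouse 2, 3 or 4, or else A20WT mouse 1, 2 or 4 (adjusted p 0.0632 to 0.0866, log2 change -0.83 to -0.74). It was kept on leaving out A20KIKO mouse 1 (adjusted p = 0.0144, log2 change -1.002) and on leaving out A20WT mouse 3 (adjusted p = 0.0164, log2 change -0.97).

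Krt79 (ENSMUSG00000061397, chr15:101929332-101940324, minus strand) marks cells of the upper follicle and the sebaceous duct. It had 1746, 1916, 1681 and 1553 CPM in A20KIKO mice 1 to 4, and 1574, 1496, 1415 and 1425 CPM in A20WT mice 1 to 4. A20KIKO mouse 4 lay just below A20WT mouse 1, and the other 3 A20KIKO libraries lay above all A20WT libraries. The log2 change was 0.22 (95% interval -0.03 to 0.48, edgeR adjusted p = 0.400).

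Whether 2 keratins differed in their change was tested with the ratio of their counts inside each library, which needs no scaling between libraries. Krt5 was lower relative to its partner in each library labelled A20KIKO, with 0.242, 0.219, 0.220 and 0.165 counts of Krt5 per count of Krt14 in A20KIKO mice 1 to 4, against 0.267, 0.365, 0.345 and 0.271 in A20WT mice 1 to 4. The groups did not overlap. The mean log2 ratio was 0.56 units lower in libraries labelled A20KIKO, -2.26 ± 0.24 (A20KIKO) against -1.69 ± 0.23 (A20WT; SD, n = 4 each). The two-sided exact permutation p was 0.0286, the smallest that 4 against 4 allows, and 0.0857 when adjusted over the 6 ratios computed. The difference did not pass after adjustment. With that smallest p, 2 separated ratios among 6 could not have passed, so the adjusted p cannot decide whether they differ.

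Basal against suprabasal type I keratins gave a similar picture. Krt14 per count of Krt10 was 0.802, 0.930, 0.656 and 1.093 in A20KIKO mice 1 to 4, against 1.37, 1.11, 1.096 and 1.17 in A20WT mice 1 to 4. A20KIKO mouse 4 came just below A20WT mouse 3 and the groups did not overlap. The log2 difference was -0.47 (exact permutation p = 0.0286, adjusted p = 0.0857). Neither Krt14 nor Krt10 passed alone, so the ratio combines a lower mean of Krt14 with a higher mean of Krt10.

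The other 4 ratios overlapped between the groups. Krt2 per count of Krt10 was 2.31 ± 0.371 in libraries labelled A20KIKO and 2.27 ± 0.448 in A20WT-labelled libraries (SD, n = 4 each), with exact permutation p = 0.943. Krt1 per count of Krt10 was 0.179 ± 0.169 in libraries labelled A20KIKO and 0.116 ± 0.0472 in A20WT-labelled libraries (exact permutation p = 0.714, n = 4 each). Krt5 per count of Krt1 was 1.58 ± 0.842 in A20KIKO libraries and 3.56 ± 1.32 in A20WT libraries (exact permutation p = 0.0857, n = 4 each). Krt15 per count of Krt14 was 0.243 ± 0.0791 in libraries labelled A20KIKO and 0.329 ± 0.107 in A20WT-labelled libraries (exact permutation p = 0.286, n = 4 each).

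**Figure D3:**
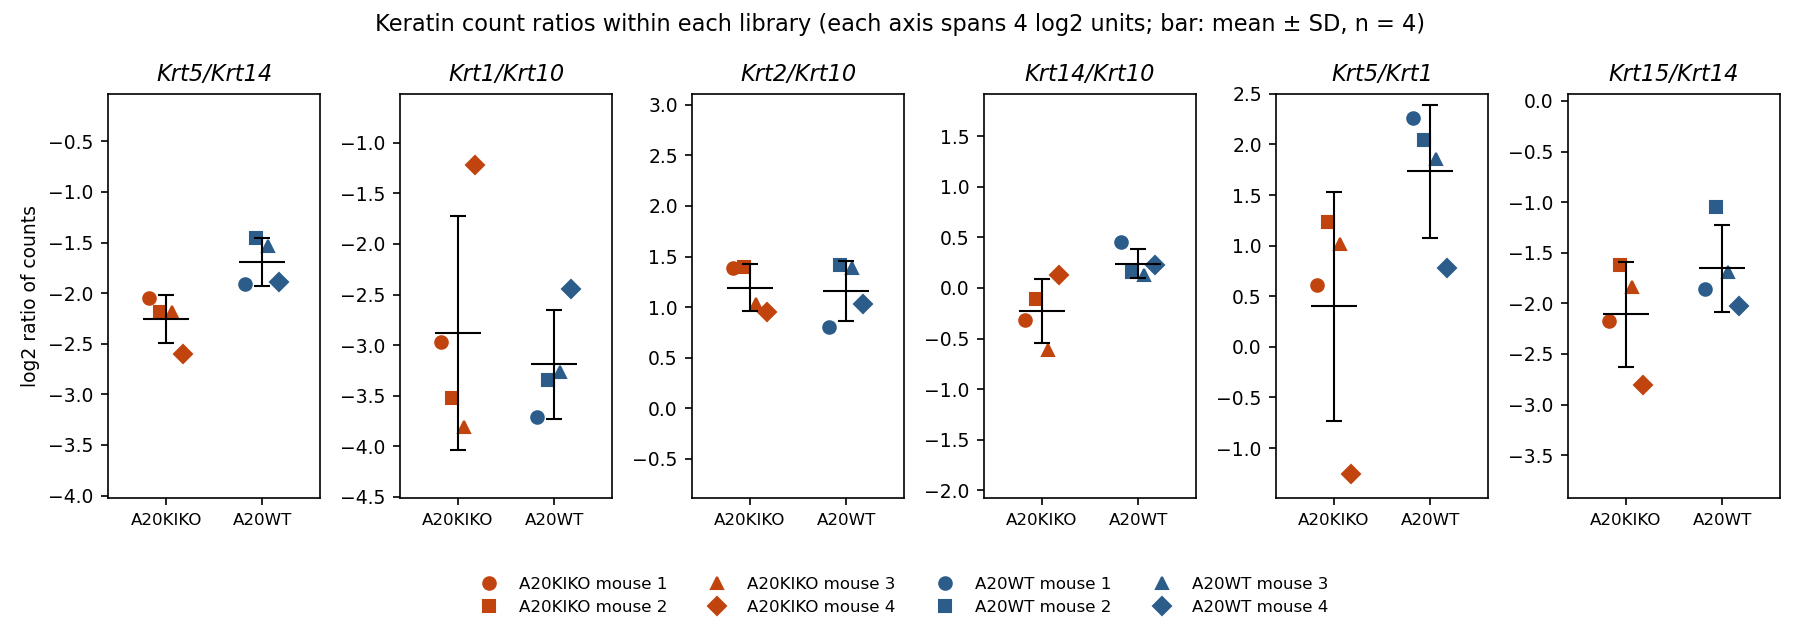
Log2 ratio of counts of 2 keratins within each library, with A20KIKO in orange left of A20WT in blue; each axis spans 4 log2 units and bars show mean ± SD (n = 4). Krt5/Krt14 and Krt14/Krt10 separate the groups, and mouse 4 of each group is highest in Krt1/Krt10.

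Near-identical stretches could move reads between keratins. Of the 50-base words in the annotated transcripts of Krt5, 8.52% also occur in another gene, mostly Krt6a, and of those of Krt14 13.9% do, mostly in Krt16. For words of 100 bases these shares were 2.38% and 2.78%. Krt15 shared 0.640% of its 50-base words. Krt1, Krt10, Krt2, Krt77 and Krt79 shared no word of 50 bases with the transcripts of another gene. Only the sense strand of transcripts was searched. No source used here says how the authors' counting treated shared reads. Krt6a had 203, 116, 75.8 and 1916 CPM in A20KIKO mice 1 to 4, where Krt5 had 3454, 3605, 3637 and 3354 CPM. In A20WT mice 1 to 4 Krt6a had 148, 45.4, 69.3 and 365 CPM, and Krt5 6869, 5574, 5957 and 6506 CPM. The part of shared reads in the Krt5 values was not tested.

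Across the 8 libraries, the 3 genes most like Krt5 in log2 CPM, among 7080 genes averaging 20 CPM or more, were Dbp (Pearson r = 0.98), Ndfip2 (0.98) and Gpt (0.98). Dbp encodes a PAR bZIP transcription factor driven by the circadian clock, Ndfip2 an adaptor of ubiquitin ligases, and Gpt an alanine aminotransferase. All 3 fell, with log2 changes of -1.09, -0.42 and -0.88 (edgeR adjusted p = 0.00139, 0.0228 and 0.00301). These r values are descriptions over 8 libraries that share the 2 groups. Choosing genes for likeness to a fallen keratin over these libraries favours genes that also fell, so their falls are not separate support.
Krt77 was most like Eif4b (0.94), Ereg (0.87) and Tmcc1 (0.87), of which Ereg, an EGF receptor ligand, fell (log2 change -0.91, adjusted p = 0.0123). The genes most like Krt14 were Acbd4, Reep4 and Irf3 (0.96 to 0.97), and those most like Krt15 were Samd10, Tjap1 and Cdh13 (0.98 each). For Krt1 they were Dnajc3, Klk13 and Ephx3 (0.96 to 0.97), for Krt10 Cdkn2b (0.95) and Hgh1 (0.90), for Krt2 Lpar3, Ptdss1 and Dgat2 (0.92 to 0.97), and for Krt79 Mgll, Pqlc3 and Dct (0.94 to 0.97). None of the genes named for these 6 keratins passed edgeR's adjusted threshold. DESeq2 called Mgll (adjusted p = 0.0318) and Dct (adjusted p = 0.0356), both higher in libraries labelled A20KIKO.

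The members did not follow each other closely within groups. After subtracting each group's mean, Krt5 correlated with Krt14 at r = 0.71 and with Krt10 at r = 0.75, Krt15 with Krt79 at r = 0.76, and Krt1 with Krt15 at r = -0.72 and with Krt79 at r = -0.77 over the 8 libraries. For the fallen pair Krt5 and Krt77 the value was -0.10, against 0.81 without subtracting the means. The remaining pairs lay between -0.42 and 0.62. These values describe 8 libraries, 2 of which, mouse 4 of each group, were apart in Krt1.

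Beyond the 8 genes, 32 other keratins were tested and 0 passed edgeR's adjusted threshold, with 5 at an unadjusted p under 0.05 (Krt84, Krt222, Krt17, Krt12 and Krt7). DESeq2 and limma-voom each called 1 of them, Krt84 (adjusted p = 0.000899 and 0.00308). Over all tested genes, 15.4% had an unadjusted p under 0.05, and DESeq2 called 6.89% and limma-voom 3.34%. Their log2 changes were above 0 in 21 and below 0 in 11. Among the 11 with at least 5 CPM in A20WT they ranged from -0.16 (Krt78) to 3.44 (Krt84). Krt84, a hard keratin of nail and tongue, was the 1 non-member of 32 whose groups did not overlap. Over all tested genes the groups did not overlap in 10.6%, with A20KIKO higher in 5.78%. Krt84 had 93.5, 42.5, 66.8 and 52.7 CPM in A20KIKO mice 1 to 4. In A20WT mice 1 to 4 it had 2.12, 1.05, 4.52 and 15.8 CPM (edgeR adjusted p = 0.120). Krt17, the type I keratin that pairs with type II keratins of the follicle, had 2206 CPM on average in libraries labelled A20KIKO and 1323 CPM in A20WT-labelled libraries (adjusted p = 0.206).

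**Figure D4:**
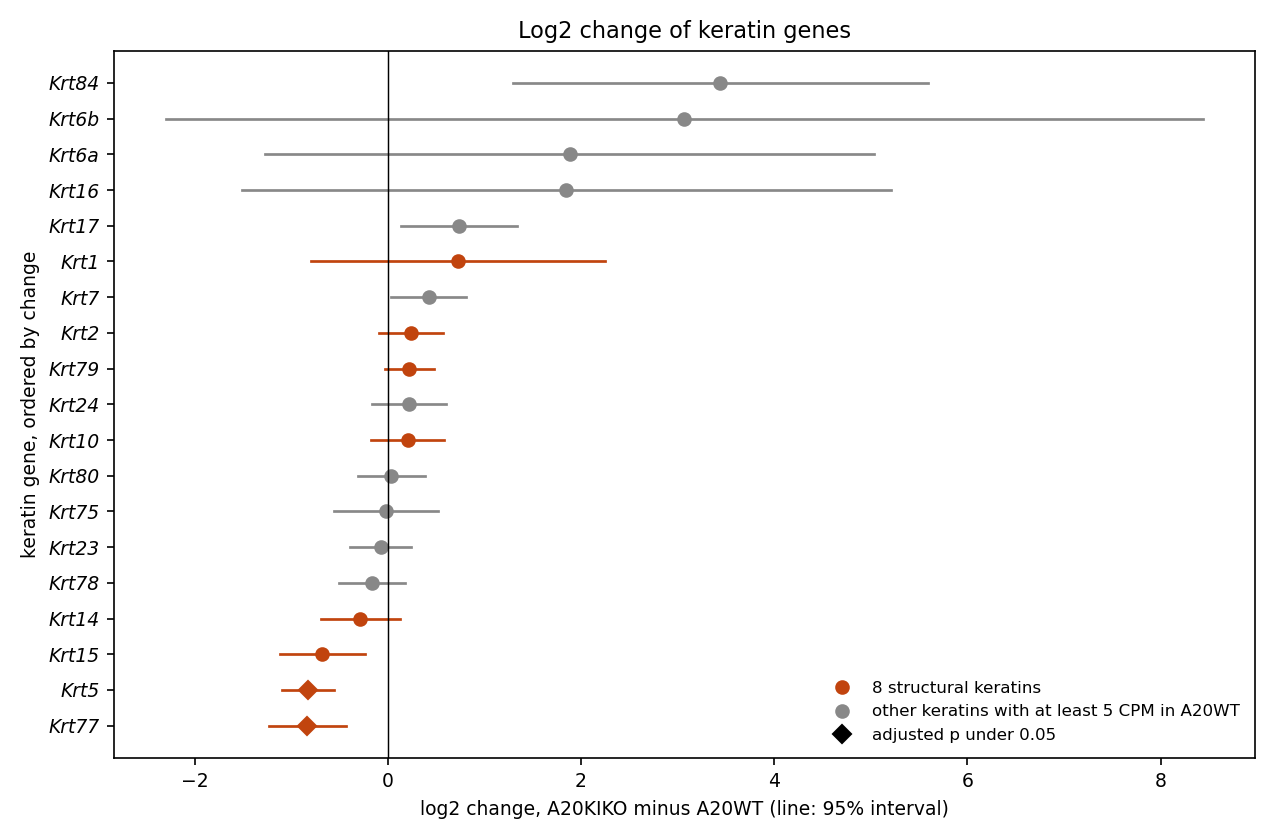
Log2 change (A20KIKO minus A20WT) of the 8 structural keratins in orange and of 11 other keratins with at least 5 CPM in A20WT in grey, ordered by change; lines are 95% intervals from the edgeR fit and diamonds mark adjusted p under 0.05. Krt5 and Krt77 are the 2 diamonds, at -0.83 each.

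Of 20 basal keratinocyte genes, 0 rose and 1 fell, beside 3.49% called over all tested genes, with a median log2 change of -0.04. An unadjusted p under 0.05 was found for 4 of the 20, and DESeq2 and limma-voom called 1 each. The 1 was Igfbp3, which binds insulin-like growth factors outside the cell, with 175 ± 30.3 CPM in libraries labelled A20KIKO and 459 ± 49.4 CPM in A20WT-labelled libraries (SD, n = 4 each). Of 30 spinous and granular genes, 1 rose and 1 fell, with a median of -0.07. Of these 30, 7 had an unadjusted p under 0.05, DESeq2 called 6 (Notch1, Klk5, Hrnr, Lce1a1, Flg2 and Serpinb12) and limma-voom 2. Serpinb12, a protease inhibitor, had 359.8 ± 39.7 CPM (A20KIKO) and 248 ± 9.76 CPM (A20WT), and its rise gave a log2 change of 0.54 (edgeR adjusted p = 0.0188). Flg2, a filaggrin-like protein of the cornified layer, had 91.9 ± 22.1 CPM (A20KIKO) and 172 ± 38.6 CPM (A20WT), a fall with a log2 change of -0.90 (edgeR adjusted p = 0.0292).

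Of 26 transcription factors and receptors that act on keratin genes, 0 passed edgeR's adjusted threshold, 6 had an unadjusted p under 0.05, and DESeq2 called 3 (Klf5, Notch1 and Gata3) and limma-voom 1. The median log2 change was -0.11. Klf5 had 525 ± 37.3 CPM in libraries labelled A20KIKO and 693 ± 49.96 CPM in A20WT-labelled libraries (edgeR adjusted p = 0.0787), and Klf4 had 544 ± 26.4 CPM (A20KIKO) and 583 ± 74.9 CPM (A20WT) (adjusted p = 0.771). Of 14 genes of the keratin-binding cytoskeleton 0 passed by edgeR, DESeq2 or limma-voom and 1 had an unadjusted p under 0.05, with Dsp, the desmosomal anchor of keratin filaments, at 1371 ± 125 CPM (A20KIKO) and 1299 ± 88.9 CPM (A20WT), and Pkp3, a desmosomal plaque protein, at 1316 ± 119 CPM (A20KIKO) and 1330.4 ± 175 CPM (A20WT). Of 14 upper follicle and bulge genes, 0 rose and 1 fell: Lgr6, a stem cell receptor, had 63.8 ± 12.4 CPM in libraries labelled A20KIKO and 106 ± 12.9 CPM in A20WT-labelled libraries (edgeR adjusted p = 0.0145). The median log2 change of the 14 was 0.08. An unadjusted p under 0.05 was found for 5 of them, Lgr6 and 4 that were higher. These were Krt17, Plet1, Defb6 and Sox9, with log2 changes of 0.74, 0.49, 0.86 and 0.27. DESeq2 called 2 (Lgr6 and Defb6) and limma-voom 1.

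Markers of other cells were summed per library beside these results, and called means edgeR adjusted p under 0.05. Over all tested genes 3.49% were called, 15.4% had an unadjusted p under 0.05, and DESeq2 called 6.89% and limma-voom 3.34%. Langerhans cell, T cell and neutrophil markers had 1 gene each at an unadjusted p under 0.05 and cartilage markers 3, of which DESeq2 called 1, Acan. Langerhans cell markers (9 genes, 0 called) summed to 3230 to 3561 CPM in libraries labelled A20KIKO and 2660.5 to 3517 CPM in A20WT-labelled libraries, and T cell markers (8 genes, 0 called) to 134 to 142 CPM (A20KIKO) and 121 to 150.3 CPM (A20WT). Fibroblast markers (5 of 6 tested, 0 called by edgeR, 3 by DESeq2, 2 by limma-voom and 4 at an unadjusted p under 0.05) summed to 15.1 to 36.7 CPM in libraries labelled A20KIKO and 39.5 to 55.0 CPM in A20WT-labelled libraries, so they were apart in the direction of Krt5. Of 8 monocyte and macrophage markers, C1qa, C1qb and Ly6c2 rose. The 8 summed to 26.3 to 63.2 CPM (A20KIKO) and 19.7 to 27.0 CPM (A20WT). An unadjusted p under 0.05 was found for 5 of them, and DESeq2 called 5 and limma-voom 3. Melanocyte markers (7 genes, 0 called by edgeR and limma-voom, 3 by DESeq2 and 5 at an unadjusted p under 0.05) summed to 49.5 to 229.7 CPM (A20KIKO) and 44.9 to 59.9 CPM (A20WT). Neutrophil markers (3 of 6 tested, 0 called) summed to 22.7 to 2895 CPM (A20KIKO) and 5.55 to 38.4 CPM (A20WT), the highest being A20KIKO mouse 4 through S100a8 and S100a9, which keratinocytes also make. Sebocyte markers (10 genes, Elovl3 rose) summed to 3484 to 6407 CPM (A20KIKO) and 3234 to 5279 CPM (A20WT). Of these 10, 2 had an unadjusted p under 0.05, and DESeq2 and limma-voom called 1 each. Cartilage markers (4 of 5 tested) summed to 67.6 to 79.8 CPM (A20KIKO) and 61.9 to 70.2 CPM (A20WT), nearly all of it Sox9, which the follicle also makes and which averaged 70.3 CPM (A20KIKO) and 58.3 CPM (A20WT). The other 3 were lower in libraries labelled A20KIKO, as Krt5 was, with log2 changes of -1.70 (Acan), -0.89 (Col2a1) and -0.68 (Comp) and a list median of -0.79. Hair shaft and inner root sheath markers (9 of 13 tested) summed to 13.7 to 36.3 CPM (A20KIKO) and 10.4 to 21.5 CPM (A20WT), with 0 called in either list and 0 of the hair markers at an unadjusted p under 0.05. Merkel cell, endothelial and skeletal muscle markers summed to at most 3.87 CPM in any library, with 0 called and 0 at an unadjusted p under 0.05. The part of these cells in the keratin values was not tested.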

How the data were processed

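Ear epidermal sheets of 8 mice gave, per the labels' protocols, RNA libraries of SMART-Seq v4 cDNA cut by Nextera, which keeps no strand and no molecular identifiers. The authors deposited raw counts per Ensembl gene in 2 lane columns per library. The submitters' processing notes name STAR 2.4.2a, Picard 1.139, HTSeq 0.6.1p1, GRCm38.p5 and GRCh38 without roles. Lanes were summed. Symbols came from a reference table (51633 of 51912 identifiers) and coordinates from GENCODE M21 (GRCm38). In R 4.3.3, edgeR 4.0.16 filtered genes (filterByExpr, minimum count 10, total 15), scaled libraries by TMM and fitted the quasi-likelihood model with robust dispersions and group as its term. A gene was called at a Benjamini-Hochberg adjusted p under 0.05, two-sided. SE came from the test, as the size of the log2 change over the root of its F statistic, and 95% intervals use the fit's degrees of freedom. CPM is scaled to library total and TMM factor. The fit was tested on simulated counts. Ratios were compared by exact permutation. The alternatives were other size factors, filters, tools and dispersions, a 1.5-fold test, single lanes, thinned counts, a replicate block and each library left out, with DESeq2 1.42.0 and limma 3.58.1. Likeness used log2 CPM with a prior count of 2. Python 3.11.15 and Matplotlib 3.10.9 drew the plots.

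The keratins, gene lists and tests were chosen with earlier results of these data known. The text names the 8 keratins, the 3 genes most like each (1 of them, for Krt10, is not reported here), called keratins outside the set, and up to 3 called members of each list, or up to 2 with the highest mean where none was called. Krt84, Krt222, Krt17, Krt12, Krt7, Krt78, Krt6a, Krt6b, Krt16, Plet1 and Sox9, and the DESeq2 calls, were named with their values known. Intervals and SE cover the spread between mice and counting error, and PCR copies count as separate molecules.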

Additional observations from a re-analysis of the deposited data

Results flagged for a closer look

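In 4 cases values stood far from the other 3 libraries of their group, by Dixon's gap-to-range criterion. With 28 groups of 4 looked at (8 keratins and 6 ratios), chance alone marks about 1 in 20. Krt1 had 7996 CPM in A20KIKO mouse 4, and 3791 CPM in A20WT mouse 4. Krt77 had 465 CPM in A20KIKO mouse 1. Krt10 had 25215.5 CPM in A20KIKO mouse 3, the library with the fewest counts.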

How the results depend on the processing

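Each value was recomputed under 13 other settings and with each library left out, or, for ratios, on each lane and with each library left out. The count of changed genes was 1133 with DESeq2, 374 with the stricter filter (5 CPM in 4 libraries), 200 against a 1.5-fold change, and 348 to 619 with 1 library left out (348 without A20KIKO mouse 1, 355 without A20WT mouse 3). The count of changed keratins was 3 with DESeq2, 0 against a 1.5-fold change, and 1 or 2 with 1 library left out. Against a 1.5-fold change Krt5 (log2 change -0.83) and Krt77 (-0.83) no longer passed. With 1 library left out, Krt5 passed each time (-0.87 to -0.78), Krt77 lay between -1.002 and -0.74 and passed in 2 of 8, and Krt15 lay between -0.85 and -0.55 and passed in 1 of 8. Krt15 passed with DESeq2 (-0.68). Krt1 lay between -0.14 and 1.20 and turned negative without A20KIKO mouse 4, as did Krt1/Krt10 (-0.25, range -0.25 to 0.62). The log2 ratio Krt2/Krt10, at 0.03, lay between -0.087 and 0.12 and turned negative in 4 of the 8 (-0.034, -0.038, -0.087 and -0.011). With a library left out, 0 of the 6 ratios passed after adjustment (lowest adjusted exact permutation p = 0.0857). The smallest possible exact p limits this count too, so no conclusion is drawn from it. With the replicate number as a block, 551 genes and 2 keratins changed. Krt1 then had a log2 change of 0.51 (edgeR unadjusted p = 0.0155, adjusted p = 0.193), against 0.73 (unadjusted p = 0.296) without the block. These data do not settle whether the number pairs the mice. Deviations of same-numbered libraries correlated at 0.04, 0.06, -0.01 and 0.24, and 2 of 4 A20KIKO libraries correlated best with their own number. Where a cause of these shifts is not the alternative's own construction, the cause was not tested.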
